A study of Bos taurus with 22 samples.

Results

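The genes described here are 9 of the 27570 in the count table: GLP2R, the receptor for glucagon-like peptide 2 (GLP-2), and 8 genes whose products have been proposed to carry its signal in the gut. They were chosen by symbol (GLP2R, VIPR1, VIP, IGF1, FGF7, AREG, EREG, HBEGF and NOS3), all 9 were found in the table, and the rule uses no measured value. The choice was nevertheless made with earlier results of these data known, and the study had already reported VIPR1 as increased by GLP-2 in these samples. The data are poly(A) RNA sequencing of jejunal mucosa, scraped with a glass slide from the middle of the jejunum of growing Holstein steers. Every steer, controls included, received raw corn starch through a catheter in the abomasum (3.94 g per kg body weight and day) for 7 d before slaughter. The 4 treatments were water infusion with bovine serum albumin (BSA) vehicle injected under the skin (control, 5 steers), sodium caseinate infusion at 1.3 g per kg body weight and day with BSA (casein, 6 steers), water with bovine GLP-2 at 100 µg per kg body weight and day (GLP-2, 5 steers), and caseinate with GLP-2 (casein + GLP-2, 6 steers). Steers had been stratified by body weight into 6 blocks, and the replicate number of a steer is its block. Each library is 1 steer, so the spread between replicates is a spread between animals.

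GLP-2 is cut from proglucagon in enteroendocrine L cells and released into the blood after a meal, and it is known for promoting growth and blood flow of the small intestine. Its receptor is coupled through Gs to cyclic AMP and lies mainly on subepithelial fibroblasts and enteric neurons, with little on absorptive enterocytes, so the trophic signal is thought to reach the epithelium through secreted relays. Insulin-like growth factor 1 (IGF1), fibroblast growth factor 7 (FGF7) and ErbB ligands (AREG, EREG, HBEGF) are the proposed growth relays, while vasoactive intestinal peptide (VIP), its receptor VIPR1 and endothelial nitric oxide synthase (NOS3) are the proposed neural and vascular ones.

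In the coordinates of the deposited table (ARS-UCD1.2), all 9 genes are protein coding. GLP2R (ENSBTAG00000005052) lies on chromosome 19 at 28982918 to 29024862 and VIPR1 (ENSBTAG00000006567) on chromosome 22 at 14658102 to 14689960. The symbol VIPR1 is that of the deposited table, while a table of the study's article lists the same identifier under another symbol. VIP (ENSBTAG00000013400) lies on chromosome 9 at 89713051 to 89721607 and NOS3 (ENSBTAG00000017680) on chromosome 4 at 113577087 to 113597490. IGF1 (ENSBTAG00000011082) lies on chromosome 5 at 66191602 to 66264083 and FGF7 (ENSBTAG00000051898) on chromosome 10 at 60791420 to 60854483. Of the ErbB ligands, EREG (ENSBTAG00000010273) and AREG (ENSBTAG00000018134) are both on chromosome 6, at 89306902 to 89325899 and 89379645 to 89391792, and HBEGF (ENSBTAG00000021766) is on chromosome 7 at 51533600 to 51544783.

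The libraries held 8809666 to 28447810 counts in genes (median 12028560.5). A set of 6, among the 11 from BSA steers (casein replicates 1, 2, 3 and 5 and control replicates 3 and 5), stood apart from the other 16. They had 90 to 159 genes with exactly 1 count, against 349 to 1140 in the others, and 14821 to 17085 genes detected, against 17106 to 18602. Of 12959 genes that were well counted over all steers, these 6 libraries listed 0.0694% to 1.73% at 0, against 0.0154% to 0.208% in the others. All of them but casein replicate 2 are also the 5 columns that close the deposited table, out of numerical order. All 6 came from BSA steers, so whatever sets them apart cannot be told apart from BSA within them, and the members' GLP-2 results are therefore given with and without them. Their marker genes differed too: the summed level of 8 villus enterocyte markers was 1252 to 14019 CPM (counts scaled to library size) in the 6, 14984 to 42076 CPM in the other 5 BSA steers and 12734 to 60240 CPM in the 11 GLP-2 steers, so the labelled tissue was present in every library but at unlike levels. The summed level of 9 B cell follicle markers was 61.7 to 2050 CPM in the 6, 19.98 to 1086 CPM in the other BSA steers and 17.5 to 68.9 CPM in GLP-2 steers, and no marker of these lists was at 0 in all steers. In bulk tissue, fewer cells of a type and less RNA per cell cannot be told apart.

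Per transcript length, VIPR1 was by far the most abundant of the 9. Its median over the 22 steers was 38.8 FPKM (fragments per kilobase of transcript, scaled to the library's size), followed by AREG at 1.87, GLP2R at 1.80, IGF1 at 1.42, EREG at 1.27, HBEGF at 1.15, FGF7 at 0.714, NOS3 at 0.245 and VIP at 0.0349 FPKM. Neighbours in this order were compared within steers (log2 of FPKM + 0.1, two-sided permutation of signs, 8 pairs, Benjamini-Hochberg). VIPR1 exceeded AREG in 22 of 22 steers by 4.45 ± 1.503 log2 units (SD; adjusted p = 8e-05), and FGF7 exceeded NOS3 in 18 of 22 steers by 1.07 ± 1.06 (adjusted p = 0.00036). The 6 other neighbouring pairs did not pass the test (adjusted p = 0.117 to 0.523), so the order within each of these pairs was not resolved. Genes farther apart in the order were not compared, and the pairs were formed from the medians of these same values. AREG had the higher median but exceeded GLP2R in 8 of 22 steers.

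**Figure D1:**
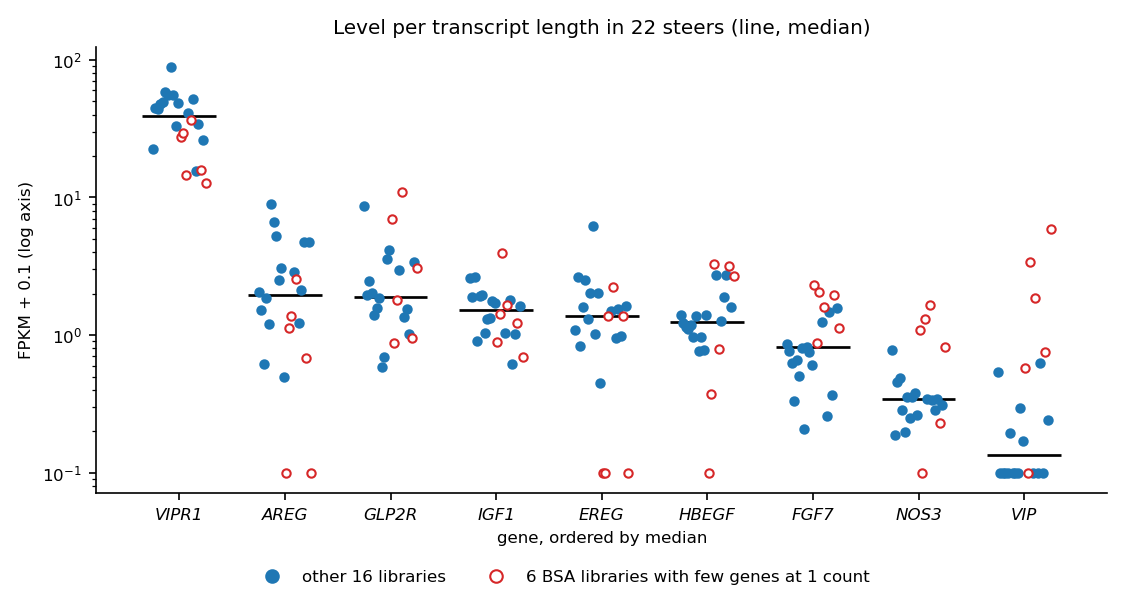
FPKM + 0.1 on a log axis for the 9 genes in each of 22 steers, ordered by median (line); open red circles are the 6 BSA libraries with few genes at 1 count. VIPR1, with a median of 38.8 FPKM, sits above all other genes, the middle 6 genes overlap broadly, and the points on the floor of the plot are steers with no count for that gene.

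Detection differed between the genes. GLP2R, VIPR1, IGF1 and FGF7 had counts in all 22 steers, although FGF7 had as few as 5. AREG was at 0 in casein replicate 1 and control replicate 5, and EREG in those and in casein replicate 2. HBEGF was at 0 in casein replicate 1 and NOS3 in casein replicate 2. Every one of these zeros fell in the 6 libraries that stood apart. There 3 counts, the usual limit for a count of 0, were worth 0.127 to 0.333 CPM by the library total. That limit may not hold in these libraries, which listed up to 1.73% of well-counted genes at 0. VIP was at 0 in 11 of 22 steers.

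GLP2R itself did not pass the test between GLP-2 and BSA steers. In CPM, control steers had 5.23, 3.11, 2.84, 11.4 and 9.74 (replicates 1 to 5) and GLP-2 steers had 28.2, 6.41, 8.26, 6.58 and 4.40 (replicates 1, 3, 4, 5 and 6). Casein steers ran from 2.66 through a median of 7.82 to 36.7, and casein + GLP-2 steers from 1.61 through 5.53 to 13.97. The 3 highest steers, casein replicates 5 and 1 and GLP-2 replicate 1, came from 2 treatments, and the groups overlapped throughout. The log2 fold change of the 11 GLP-2 against the 11 BSA steers was -0.28 (SE 0.484, 95% interval -1.23 to 0.67, adjusted p = 0.700; edgeR quasi-likelihood test, adjusted over all 13928 genes tested). It turned to 0.33 without the 6 libraries (SE 0.532, adjusted p = 0.853) and to 0.14 without casein replicate 5, so these data set no direction for the receptor mRNA.

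**Figure D2:**
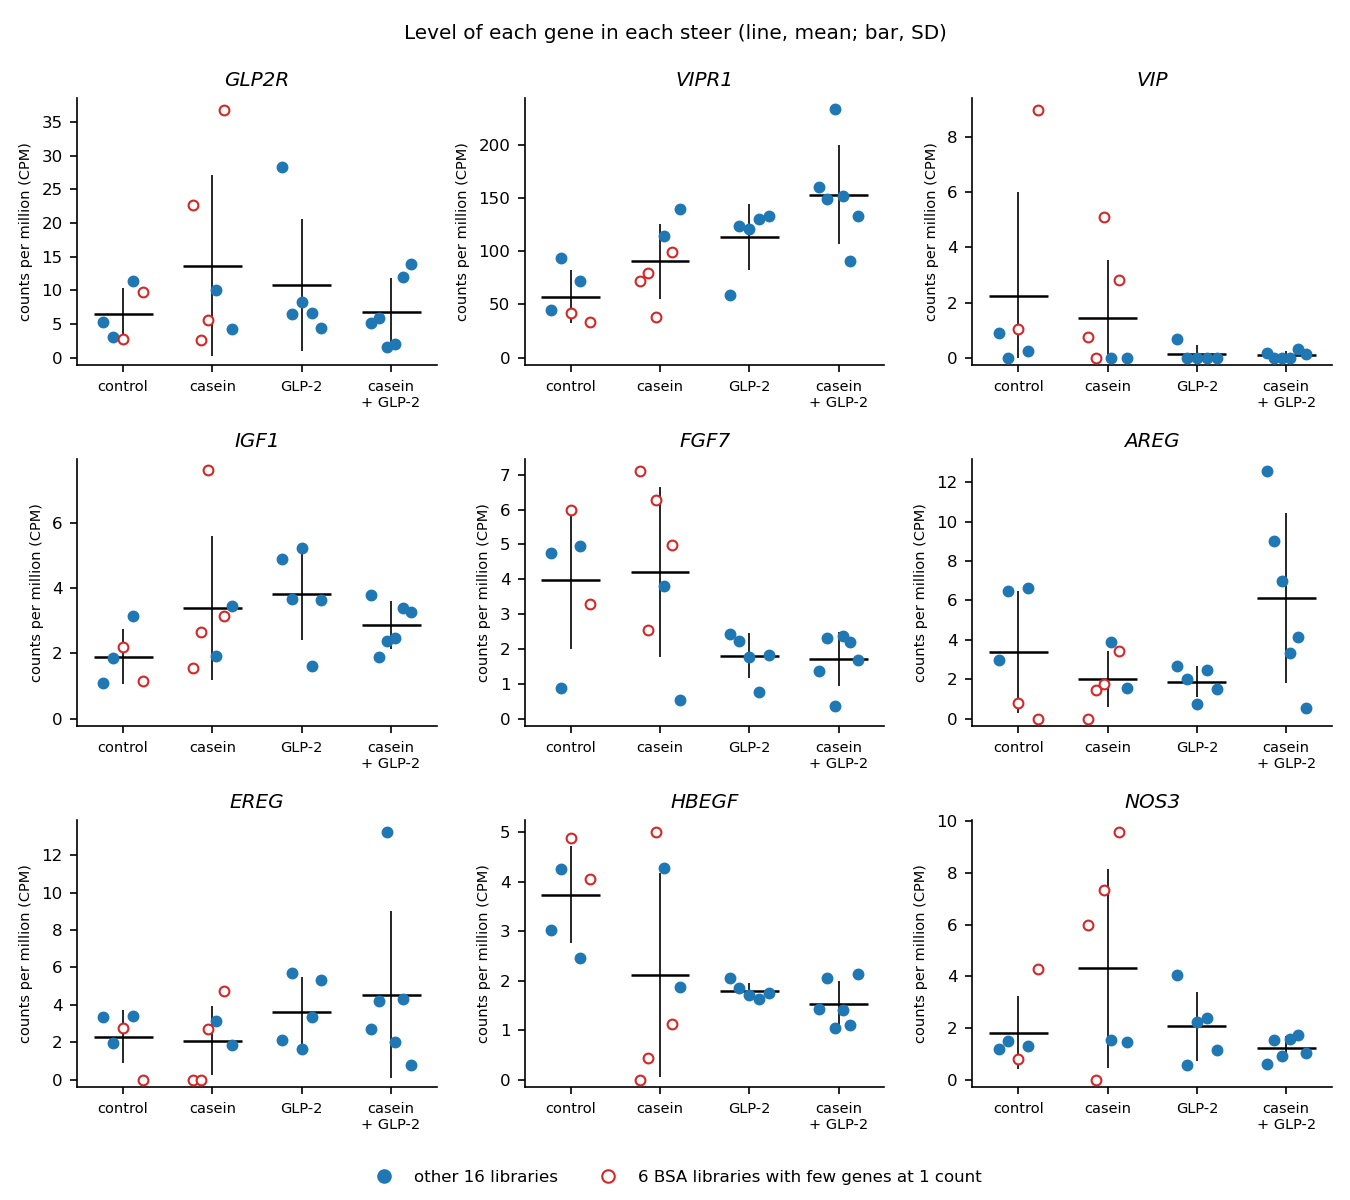
CPM of each of the 9 genes in each steer, by treatment, with the treatment mean (line) and SD (bar); open red circles are the 6 BSA libraries with few genes at 1 count. VIPR1 is higher and FGF7 lower in the GLP-2 treatments, HBEGF of GLP-2 steers lies in a narrow band between 1.62 and 2.06 CPM, and several of the extreme points in casein and control are open circles.

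VIPR1 was 1 of 2 members that passed the test, as 13.5% of all genes did. It codes for a receptor of VIP and of the related peptide PACAP that is found on epithelium and T cells. Control steers had 44.7, 93.4, 42.1, 72.1 and 33.5 CPM, and GLP-2 steers had 58.9, 124, 121, 130 and 133 CPM. Casein steers had 38.2 to 140 (median 89.4) and casein + GLP-2 steers 90.4 to 234 CPM (median 151). Of the 11 GLP-2 steers, 10 lay above the BSA median and 4 lay above the highest BSA steer, but the groups overlapped. The mean was 135 ± 43.7 CPM in GLP-2 and 75.4 ± 34.4 CPM in BSA steers (SD, n = 11 each), which the model put at 0.85 log2 units (SE 0.237, adjusted p = 0.0274). The value without the 6 libraries was 0.54 (SE 0.266, adjusted p = 0.589), no longer past the threshold, and the remaining 5 BSA steers averaged 92.9 ± 36.9 CPM. Leaving out casein + GLP-2 replicate 3 (adjusted p = 0.0595), control replicate 1 (0.0515) or control replicate 3 (0.0534) also ended the call.

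FGF7, keratinocyte growth factor, a product of stromal fibroblasts that acts on epithelial FGFR2, was the other called member and was lower. Control steers had 4.76, 0.888, 5.98, 4.96 and 3.30 CPM, and GLP-2 steers had 2.44, 2.24, 1.76, 0.763 and 1.82 CPM. Casein steers had 0.521 to 7.11 (median 4.40) and casein + GLP-2 steers 0.350 to 2.38 CPM (median 1.95). All 11 GLP-2 steers lay below the BSA median, 9 of 11 BSA steers lay above the highest GLP-2 steer, and the 2 BSA steers among the GLP-2 values were control replicate 2 and casein replicate 6. The log2 fold change was -1.23 (SE 0.373, adjusted p = 0.0361), with means of 1.76 ± 0.687 and 4.10 ± 2.14 CPM (SD, n = 11 each). With the 6 libraries left out it was -0.78 (SE 0.462, adjusted p = 0.638). The 5 BSA steers left, both low ones among them, averaged 2.99 ± 2.13 CPM and the 6 left out 5.04 ± 1.79 CPM. Counts were low, 5 to 52 in GLP-2 and 5 to 124 in BSA steers, and leaving out any 1 of 8 steers (replicates 1 and 3 of casein, of casein + GLP-2 and of control, and replicates 3 and 6 of GLP-2) moved the adjusted p above 0.05, to at most 0.0669. With the block as a term FGF7 was at -1.06 (SE 0.423, adjusted p = 0.0961), not past the threshold.

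In all, 2 of the 8 members tested were called between GLP-2 and BSA, 1 higher and 1 lower, where 13.5% of all genes tested were called (5.13% higher and 8.37% lower), so the count of 2 among 8 genes is not read as a result about the members. The median log2 fold change was -0.0032 over the 8 members and 0.0079 over all genes. Without the 6 libraries no member and none of 14529 genes was called (1261 at an unadjusted p of at most 0.05, smallest adjusted p = 0.280). DESeq2 in all 22 steers called the same 2 members, VIPR1 (adjusted p = 0.00812) and FGF7 (0.00972), and 21.5% of all genes.

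**Figure D3:**
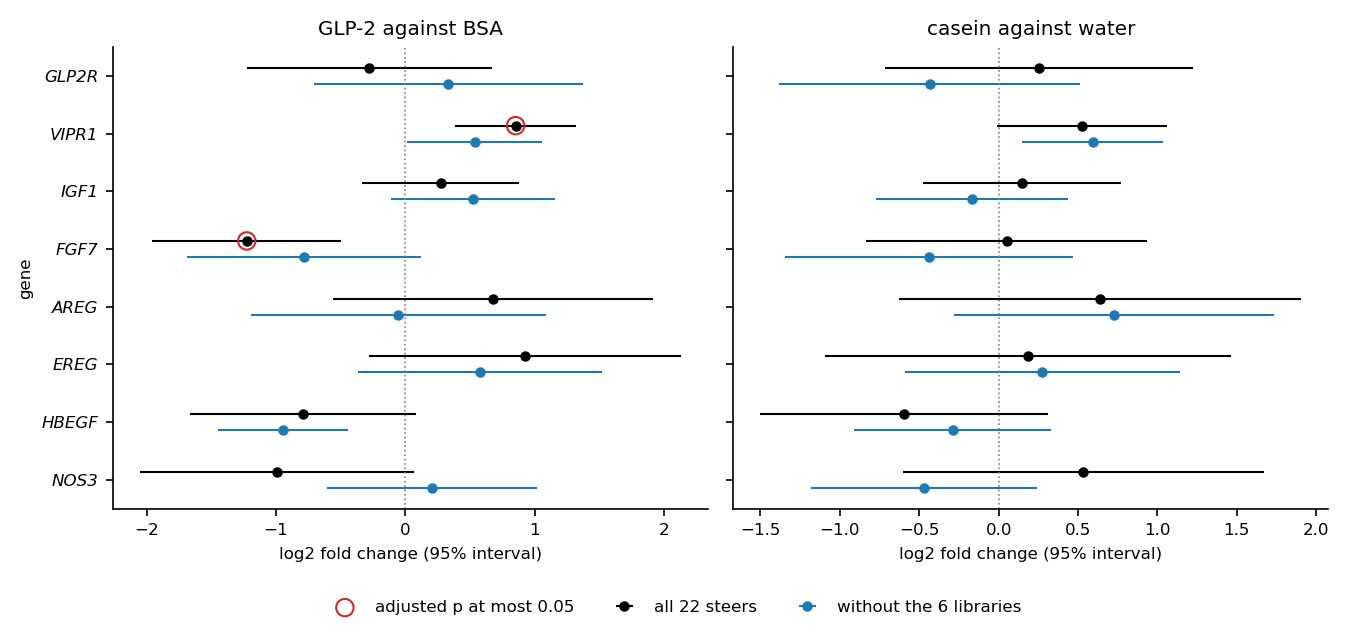
Log2 fold change with 95% interval (normal, from the SE) of 8 members for GLP-2 against BSA (left) and casein against water (right), over all 22 steers (black) and without the 6 libraries (blue); red rings mark an adjusted p of at most 0.05. The rings are on VIPR1 and FGF7 in the left panel in black, and the blue points of GLP2R, AREG and NOS3 lie across 0 from the black ones.

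HBEGF, a membrane-anchored ligand of EGFR and ERBB4, was lower in every GLP-2 than in every control steer but did not pass the test. Control steers had 3.03, 4.26, 4.88, 2.45 and 4.07 CPM and GLP-2 steers had 2.06, 1.85, 1.72, 1.62 and 1.75 CPM, with no overlap between these 2 treatments, as for 1.81% of all genes (1.01% with GLP-2 lower), a contrast in which none was called. Casein steers were the widest, from 0 through a median of 1.501 to 5.00, and casein + GLP-2 steers ran from 1.05 through 1.42 to 2.14 CPM. Casein replicates 1, 2, 5 and 6 lay below the control range, the first 3 of them among the 6 libraries, and replicate 1 had no count. The log2 fold change of GLP-2 against BSA was -0.79 (SE 0.444, adjusted p = 0.207). Without the 6 libraries it was -0.94 (SE 0.257), with all 11 GLP-2 steers below the median of the 5 BSA steers and 8 of them below the lowest, yet with an adjusted p of 0.430 (unadjusted p = 0.00175) where 8.68% of all genes reached 0.05 before adjustment. It is thus a difference of the same sign in both fits that passed in neither.

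AREG and EREG, EGFR ligands coded side by side, spread widely within treatments. AREG was 2.98, 6.48, 0.787, 6.61 and 0 CPM in control and 2.66, 2.02, 0.736, 2.48 and 1.52 CPM in GLP-2 steers. It ran from 0 through 1.65 to 3.91 CPM in casein and from 0.563 through 5.58 to 12.6 CPM in casein + GLP-2 steers, where the 3 highest of all 22 values were found. Its log2 fold change for GLP-2 against BSA was 0.68 (SE 0.631, adjusted p = 0.453) and -0.05 without the 6 libraries (SE 0.582, adjusted p = 0.981), of which 2 had no AREG count. EREG was 3.35, 1.95, 2.76, 3.42 and 0 CPM in control and 2.13, 5.72, 1.64, 3.34 and 5.31 CPM in GLP-2 steers. The single highest EREG value, 13.2 CPM, was in casein + GLP-2 replicate 3. The EREG fold change was 0.92 (SE 0.617, adjusted p = 0.287), and 0.58 (SE 0.481, adjusted p = 0.718) without the 6 libraries, of which 3 had no EREG count.

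IGF1, the growth factor most often placed between the receptor and crypt growth, did not pass the test between GLP-2 and BSA steers. Control steers had 1.10, 1.87, 2.21, 3.13 and 1.15 CPM and GLP-2 steers had 4.87, 3.66, 5.24, 1.62 and 3.64 CPM. Casein steers had 1.55 to 7.62 (median 2.90) and casein + GLP-2 steers 1.89 to 3.78 CPM (median 2.87). Under water infusion 4 of 5 GLP-2 steers were above every control steer, while under casein infusion the treatments overlapped throughout. The pooled log2 fold change was 0.27 (SE 0.311, adjusted p = 0.544), and 0.53 (SE 0.323, adjusted p = 0.650) without the 6 libraries.

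VIP, a peptide of enteric neurons, was too low to pass the filter on counts. Its counts were 17, 0, 13, 4 and 117 in control and 9, 0, 0, 0 and 0 in GLP-2 steers. In casein steers they were 9, 0, 88, 0, 70 and 0, and in casein + GLP-2 steers 2, 0, 0, 0, 4 and 1. VIP was thus found in 4 of 11 GLP-2 steers, with at most 9 counts, and in 7 of 11 BSA steers, with up to 117, and the 3 counts above 20 were all in the 6 libraries. The mean log2 CPM (prior count 2) was -2.27 ± 0.883 in GLP-2 and -0.51 ± 2.23 in BSA steers (SD, n = 11 each), a difference of -1.77 with p = 0.0230 in a two-sided permutation test with 100000 resamples. Without the 6 libraries the difference was -0.29 (p = 0.566, exact permutation test, 11 against 5 steers), with 2 of the 5 BSA steers at any count. In edgeR without a filter, over all 21855 genes with a count, VIP was called for GLP-2 against BSA (-3.91, SE 1.10, adjusted p = 0.0362), with 11 of 22 steers at 0. For casein against water the difference in log2 CPM was -0.27 (p = 0.752, permutation test).

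NOS3, which makes nitric oxide in endothelium, had 1.20, 1.51, 0.787, 1.31 and 4.30 CPM in control and 4.03, 0.559, 2.25, 2.39 and 1.14 CPM in GLP-2 steers. Casein steers had 0 to 9.57 (median 3.75) and casein + GLP-2 steers 0.605 to 1.73 CPM (median 1.28). The 4 highest values of all, 4.30 to 9.57 CPM, were in 4 of the 6 libraries (casein replicates 1, 3 and 5 and control replicate 5). The log2 fold change was -0.99 (SE 0.540, adjusted p = 0.192) and turned to 0.21 (SE 0.414, adjusted p = 0.885) without the 6 libraries, where the 5 BSA steers lay between 1.20 and 1.52 CPM.

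Casein infusion moved none of the members past the test. Of 8 tested, 0 were called between the 12 casein and 10 water steers, where 0% of 14096 genes were called (3.36% at an unadjusted p of at most 0.05; DESeq2 called 5 genes, 0.0355%, none of them a member). The largest relative to its error was VIPR1, at 0.52 (SE 0.273, unadjusted p = 0.0679, adjusted p = 0.994), with 9 of 12 casein steers above the water median. In the 16 other steers VIPR1 was at 0.59 (SE 0.227, unadjusted p = 0.0177, adjusted p = 0.606). The other 7 lay between -0.59 (HBEGF) and 0.64 (AREG) with adjusted p-values of 0.994 to 0.998, and GLP2R, IGF1, FGF7 and NOS3 changed sign without the 6 libraries.

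In the model of the 4 treatments (15086 genes) no member passed the test in any of the 4 contrasts or in the interaction, and 0% of all genes did in each (edgeR; DESeq2 called 2 to 891 genes per contrast and no member). For GLP-2 against control, VIPR1 was at 1.01 (SE 0.323, adjusted p = 0.209) and IGF1 at 1.04 (SE 0.442, adjusted p = 0.306), and for casein + GLP-2 against casein VIPR1 was at 0.74 (SE 0.293, adjusted p = 0.152), FGF7 at -1.32 (SE 0.536, adjusted p = 0.156) and NOS3 at -1.84 (SE 0.738, adjusted p = 0.154). Without the 6 libraries the first contrast was at 0.69 for VIPR1 (SE 0.312, adjusted p = 0.497) and 0.91 for IGF1 (SE 0.442, adjusted p = 0.521). The second, then with 2 casein steers left, was at 0.27 for VIPR1 (SE 0.346), -0.35 for FGF7 (SE 0.746) and -0.28 for NOS3 (SE 0.622), all with an adjusted p near 1 and each smaller than over all steers. Among all 22 steers, unadjusted p-values of at most 0.05 were reached by 13.9% of all genes in the first of these contrasts and by 24.1% in the second. For casein against control, VIPR1 was at 0.69 (SE 0.310, adjusted p = 0.858) and IGF1 at 0.88 (SE 0.427, adjusted p = 0.884), and for casein + GLP-2 against GLP-2 AREG was at 1.66 (SE 0.893, adjusted p = 0.995). These contrasts share treatments with one another.

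The interaction asks whether the GLP-2 difference depended on casein. It was -1.31 for IGF1 (SE 0.595, unadjusted p = 0.0379), -1.83 for GLP2R (SE 0.966), 2.36 for AREG (SE 1.23) and -2.06 for NOS3 (SE 1.07), all with an adjusted p of 0.996. Without the 6 libraries AREG was at 2.65 (SE 1.04, unadjusted p = 0.0218) and IGF1 at -0.82 (SE 0.646, unadjusted p = 0.221), again with adjusted p-values near 1 (0.999). In CPM, AREG averaged 6.11 ± 4.31 in casein + GLP-2 (n = 6) and 1.88 ± 0.780 in GLP-2 steers (n = 5), against 2.01 ± 1.43 in casein (n = 6) and 3.37 ± 3.10 in control steers (n = 5). The spread within casein + GLP-2 alone, 0.563 to 12.6 CPM, covered the means of the other treatments.

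The neighbouring genes of these pathways were taken as 7 lists, chosen with earlier results of these data known. Of their 57 genes, 42 could be tested between GLP-2 and BSA, 6 rose and 1 fell, against 5.13% and 8.37% of all genes, and none of 45 was called without the 6 libraries. With the lists chosen in this way, the counts are not read as a result about them. Of the receptors that AREG, EREG and HBEGF use, EGFR (log2 fold change 1.35, SE 0.321, adjusted p = 0.0214), ERBB3 (1.12, SE 0.240, 0.0189) and ERBB2 (0.86, SE 0.195, 0.0202) rose. ERBB3 binds neuregulins and ERBB2 has no ligand of its own, and both pair with EGFR. When the 6 libraries were left out they were at 0.98 (SE 0.367), 0.76 (SE 0.287) and 0.63 (SE 0.244), with adjusted p-values of 0.517, 0.517 and 0.530. The other ErbB genes tested, ADAM10 and ADAM17, proteases that release the ligands, and the ligand BTC, did not pass, and EGF was not analysed here.

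In the IGF list 2 of 12 genes tested rose and 0 fell: the insulin receptor INSR (1.14, SE 0.234, adjusted p = 0.0189) and the growth hormone receptor GHR (1.05, SE 0.258, 0.0223). In the 16 other steers INSR was at 0.82 and GHR at 0.70, with adjusted p-values of 0.490 and 0.565. The IGF1 receptor IGF1R was at 0.73 (SE 0.433, adjusted p = 0.233), and at 0.86 without the 6 libraries (SE 0.356, adjusted p = 0.545). The 6 binding proteins tested had negative fold changes in all 22 steers, from -1.69 (IGFBP5) to -0.30 (IGFBP4), and positive ones without the 6 libraries, and none passed in either. ERBB2, ERBB3, INSR and IRS2 (0.81, adjusted p = 0.109; 0.56 and 0.650 without the 6 libraries) are genes that the study itself took up from these samples, as it did VIPR1 among the members, so their direction here is not independent evidence.

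Of the 10 genes tested in the list of cyclic AMP signalling and early response, 1 rose and 1 fell: PRKAR2A, a regulatory subunit of protein kinase A (0.83, SE 0.276, adjusted p = 0.0482), and MYC, a transcription factor of proliferating cells (-0.77, SE 0.228, 0.0324). In the 16 steers without the 6 libraries PRKAR2A was at 0.57 (SE 0.378, adjusted p = 0.661) and MYC at -0.27 (SE 0.267, 0.763). FOS, EGR1 and JUNB, which respond to growth factors within the hour, were at 0.42, -0.24 and 0.04 with adjusted p-values of 0.348, 0.246 and 0.885. Per the study, the mucosa was collected on the day after the last GLP-2 injection. These values therefore do not cover a response within the hour of an injection. No gene of the other 4 lists was called. The closest in each were DPP4, the protease that inactivates GLP-2 (1.20, SE 0.406, adjusted p = 0.0504), the secretin receptor SCTR (0.76, SE 0.285, 0.0712), FGFR3 (0.53, SE 0.191, 0.0622) and NOS2, the inducible nitric oxide synthase (-0.96, SE 0.539, 0.206). In the same 16 steers these were at 0.51, 0.19, 0.36 and -0.47, with adjusted p-values of 0.690, 0.831, 0.636 and 0.810. FGFR2, the receptor of FGF7, was at -0.44 (SE 0.364, adjusted p = 0.393), and GCG, which codes for proglucagon, at 0.40 (SE 0.285, 0.323). Between casein and water 0 of 43 genes tested in these lists were called.

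A scraping holds epithelium, lamina propria and lymphoid tissue in shares that differ between steers, so each member was set beside 12 lists of cell type markers (score: mean log2 CPM of the list's genes). Of 108 pairs of a member and a list, 36 passed in both Pearson's r and Spearman's rho over 22 steers (permutation test with 100000 resamples, Benjamini-Hochberg over the 108), and 3 passed over the 16 steers without the 6 libraries. The shuffling ignored treatment, so differences between treatments enter these tests. GLP2R held all 3 pairs that passed in the 16 steers. It followed fibroblast markers (r = 0.76, rho = 0.74, adjusted p = 0.000617 and 0.00234, permutation test; r = 0.69 without the 2 most distant steers), and in the 16 steers r was 0.93 (rho = 0.91, adjusted p = 0.00108 for both). With endothelial markers r was 0.74 over 22 and 0.82 over 16 steers, and with smooth muscle markers 0.62 and 0.83 (without the 2 most distant of the 22 steers 0.66 and 0.59). With enteric neuron markers r was 0.14 (rho = 0.23, adjusted p = 0.691 for r, permutation test) and with villus enterocyte markers -0.27. Only 3 of the 9 neuron markers passed the filter on counts. Enteric glia scores were 0.87, -0.30 and 0.19 in the 3 steers highest in GLP2R (casein replicate 5, GLP-2 replicate 1 and casein replicate 1). The steer lowest in GLP2R, casein + GLP-2 replicate 3, had the lowest glia score, -2.05. The highest glia score, 1.04, was in control replicate 5. The low r with neuron markers thus does not set GLP2R apart from the enteric nervous system.

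**Figure D4:**
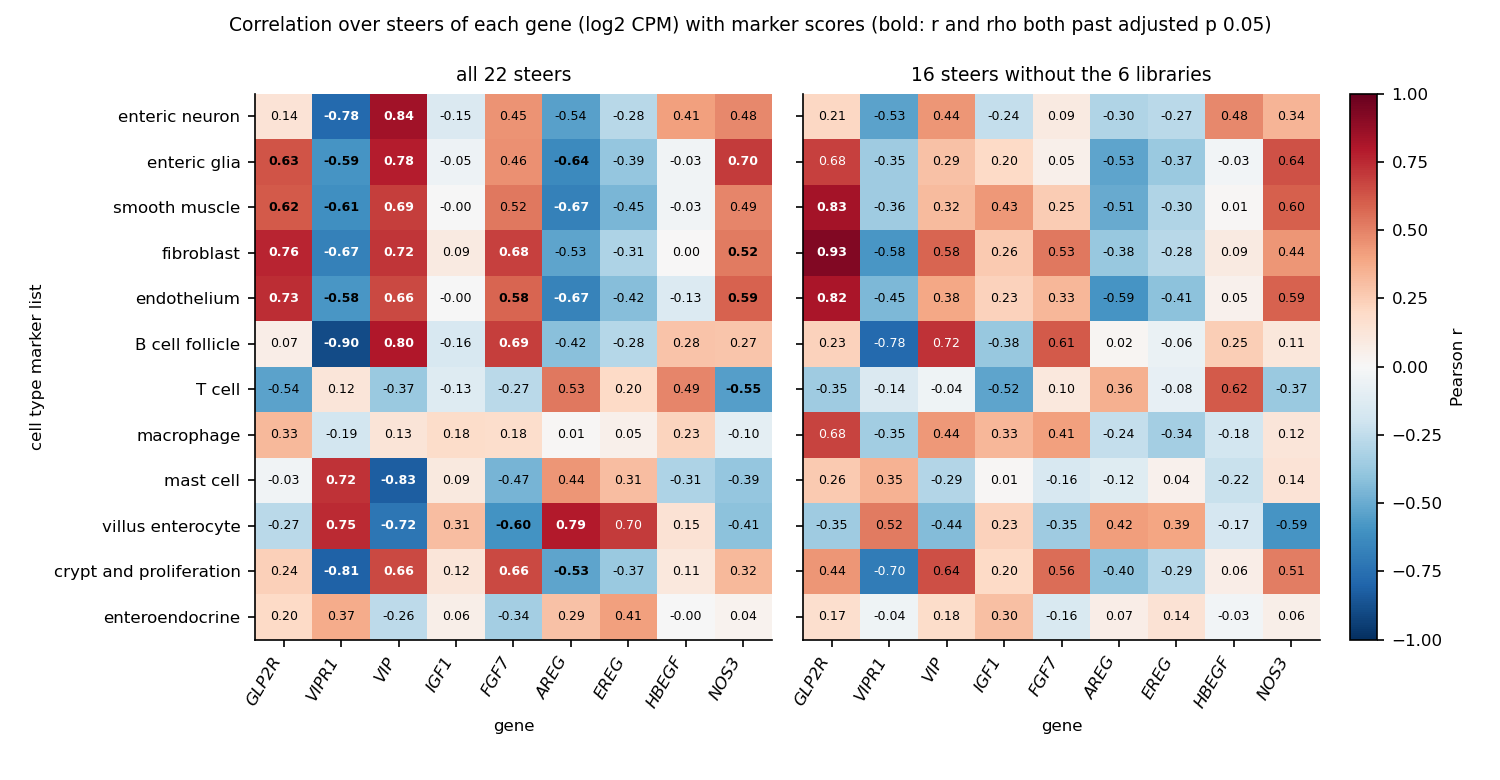
Pearson r over steers between log2 CPM of each member and the score of each of 12 cell type marker lists, in all 22 steers (left) and in the 16 without the 6 libraries (right); bold values passed in both r and rho after adjustment. The GLP2R column is positive for fibroblast, smooth muscle and endothelium in both panels (fibroblast 0.76 and 0.93), and the bold values of the other columns stand in the left panel alone; the follicle row pools 2 clusters of steers.

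The 2 called members were correlated with epithelial, fibroblast or B cell follicle markers. VIPR1 rose with villus enterocyte markers (r = 0.75, rho = 0.72, adjusted p = 0.00108 and 0.00348, permutation test; r = 0.74 without the 2 most distant steers and 0.52 in the 16). FGF7 rose with fibroblast markers (r = 0.68, rho = 0.61, adjusted p = 0.00275 and 0.0128, permutation test; r = 0.53 without the 2 most distant steers and in the 16). For B cell follicle markers the steers fell into 2 clusters, 4 with scores of 6.18 or more and 18 at 3.79 or less, and 3 of the 4 were among the 6 libraries. Within the 18, a split made after the values were seen, r with the follicle score was -0.70 for VIPR1 (rho = -0.63, adjusted p = 0.00666 and 0.0261 over the 9 members, permutation test; r = -0.59 without the 2 most distant steers) and 0.70 for FGF7 (rho = 0.64, adjusted p = 0.00666 and 0.0261; 0.54). VIP passed as well (r = 0.56, rho = 0.56, adjusted p = 0.0497 and 0.0489, permutation test; 0.53), and the other 6 members did not pass in both measures. All GLP-2 steers were among the 18. The shuffling ignored treatment, so these p-values also hold the difference between GLP-2 and BSA steers. All 8 follicle genes tested were themselves called lower in GLP-2 than in BSA steers, with a median log2 fold change of -4.78 (-3.22, and 0 called, without the 6 libraries). With the follicle score as a covariate the GLP-2 fold change of VIPR1 was 0.18 (SE 0.185) and that of FGF7 -0.50 (SE 0.439), neither past the threshold. In that fit 0 of all 13928 genes were called (smallest adjusted p = 0.999, edgeR quasi-likelihood test). No GLP-2 steer had a score above 2.37, so the score and the injection cannot be fully told apart. The part of these cell types in the VIPR1 and FGF7 differences was not tested.

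**Figure D5:**
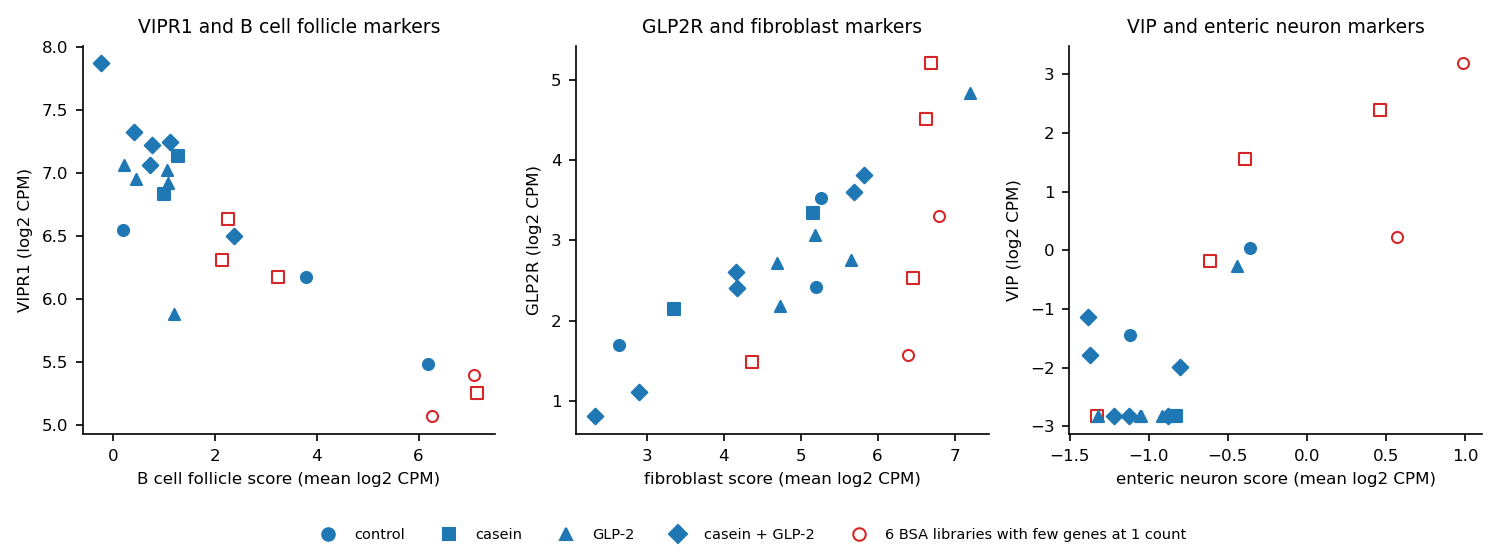
Log2 CPM of VIPR1, GLP2R and VIP in each steer against the score of B cell follicle, fibroblast and enteric neuron markers (mean log2 CPM); symbols give the treatment and open red symbols the 6 BSA libraries. VIPR1 falls with the follicle score within the 18 steers at 3.79 or less (r = -0.70), with 4 steers set apart at 6.18 or more, GLP2R rises with the fibroblast score in both kinds of library, and the VIP values at the floor are the steers with 0 counts.

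VIP followed the markers of enteric neurons (r = 0.84, rho = 0.64, adjusted p = 0.000617 and 0.0111, permutation test; r = 0.78 without the 2 most distant steers) and of enteric glia (r = 0.78, rho = 0.69; 0.63). In the 16 steers r with neuron markers was 0.44 and did not pass (adjusted p = 0.296, permutation test). Only 3 of the 9 neuron and 1 of the 5 glia markers passed the filter on counts. VIP itself was at 0 in 11 of 22 steers, so the r with these 2 lists rest on low counts. Nor is the pattern particular to neural markers. The 2 steers highest in VIP, control replicate 5 and casein replicate 3, also had the lowest mast cell scores (0.144 and 1.34). Their B cell follicle scores were high, at 6.26 and 7.14. The summed level of the 9 neuron markers was 18.5 to 60.9 CPM in the 6 libraries, 7.92 to 14.2 in the other BSA steers and 4.22 to 14.8 CPM in GLP-2 steers, and their part in the VIP difference was not tested. NOS3 rose with enteric glia (r = 0.70, and 0.60 without the 2 most distant steers) and endothelial markers (r = 0.59 and 0.65), and AREG with villus enterocyte markers (r = 0.79 and 0.53), none of which passed in the 16 steers (r = 0.64, 0.59 and 0.42). IGF1, EREG and HBEGF passed with no list in both measures.

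Among the 36 pairs of members, 4 passed in both measures. VIPR1 ran against its ligand VIP (r = -0.80, rho = -0.72, adjusted p = 0.00036 and 0.00414, permutation test; -0.80 in the 16 steers) and against FGF7 (r = -0.70, rho = -0.73; -0.65 in the 16 steers). VIP and FGF7 rose together (r = 0.63, rho = 0.68; 0.50), as did AREG and EREG (r = 0.74, rho = 0.58; 0.48). Without the 2 steers most distant in the gene named first, r was -0.67, -0.71, 0.65 and 0.42 in this order. Among the 16 steers, VIP was at 0 in 7 of 11 GLP-2 and 3 of 5 BSA steers, with at most 17 counts. The r with VIP in the 16 steers thus rest on few counts. GLP2R was tied to none in both measures; its highest r was with NOS3 (0.61, adjusted p = 0.0152, but rho = 0.57 with 0.0511, permutation test), and with IGF1 it was 0.12 (adjusted p = 0.734, permutation test).

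The genes most like GLP2R, by Pearson r of log2 CPM over 22 steers with the treatment means removed and among 15086 genes, were THSD4 (0.93), HAS2 (0.93), TRIL (0.89), BMP5 (0.89) and PLAT (0.89). HAS2 makes hyaluronan, BMP5 is a bone morphogenetic protein and PLAT is tissue plasminogen activator. In the 16 steers these r ranged from 0.836 (TRIL) to 0.95 (BMP5). For VIPR1 the 5 closest were EPS8L2 (0.93), GATA5 (0.93), MST1R (0.93), EXOC3L4 (0.92) and FAM160A2 (0.92). For IGF1 the closest were SLC9A7 (0.78), ERICH5 (0.75), ZNF75D (0.72), ZNF516 (0.70) and LSM11 (0.70), lower than for the receptors, and in the 16 steers ZNF75D was at 0.26. These r describe the top of a ranking and carry no test.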

How the data were processed

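Per the labels and the methods of the study, RNA was extracted with TRIzol, selected for poly(A), made into strand-specific libraries and sequenced on a NovaSeq. The authors trimmed reads with fastp, aligned them to ARS-UCD1.2 with HISAT2 2.0.5, used StringTie 1.3.3b and counted with featureCounts 1.5.0-p3. They deposited raw counts and FPKM per gene in 2 separate tables. A further GLP-2 steer was not analysed here, and 1 control steer was not sequenced. From the counts, genes passing filterByExpr (minimum count 10) were tested with edgeR 4.0.16 (R 4.3.3, TMM, quasi-likelihood, Benjamini-Hochberg over all genes, threshold 0.05); DESeq2 1.42.0 and limma 3.58.1 on log2 FPKM were alternatives. CPM use TMM library sizes and a prior count of 2 on the log2 scale. Intervals of fold changes are normal. Permutation tests used NumPy 2.4.6 and SciPy 1.17.1. All 9 members are given by name for GLP-2 against BSA. For the other comparisons the text names only some of them, chosen after their values were seen. From each pathway list the text names the called genes (at most the 4 with the smallest p) or, with none called, the 1 with the smallest p, and for GLP2R, IGF1 and VIPR1 the 5 most correlated genes. Other list genes (IGF1R, the IGF binding proteins, IRS2, ADAM10, ADAM17, BTC, FOS, EGR1, JUNB, FGFR2 and GCG) were named after their values were seen. The members and lists were chosen with earlier results of these data known. No 2 libraries of a treatment were identical. The test was checked on simulated counts. RNA integrity per steer was not used here.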

Additional observations from a re-analysis of the deposited data

Results flagged for a closer look

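In 4 of 34 sets of 1 gene and 1 treatment, a single steer lay far from the others of its treatment relative to their whole range, where chance gives about 1 in 20. VIPR1 in GLP-2 replicate 1 was at a log2 CPM of 5.88, with the next steer of that treatment at 6.92, and the same steer had the highest GLP2R value of its treatment (28.2 CPM). FGF7 in casein + GLP-2 replicate 3 was at -1.03, from 5 counts, with the next at 0.59. AREG in casein replicate 1 and EREG in control replicate 5 both had 0 counts, shown as -2.83, with the next steers at 0.66 and 1.07, and both are among the 6 libraries that stood apart. The rate of 1 in 20 may not hold for values at or near 0 counts, where the prior count sets the gap.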

How the results depend on the processing

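Of the alternatives, leaving out the 6 libraries or the 5 listed last, the genes-at-1-count covariate and the follicle split were chosen after seeing the data. For GLP-2 against BSA, the number of members called (2) was 1 with at least 10 counts required in every steer, 1 with limma on log2(FPKM + 0.1), and 0 with the follicle score or the number of genes at 1 count as a covariate, without the 5 libraries and without the 6, and 0 to 2 when 1 steer was left out. The count over all genes (1881) was 0 in those last 4 settings, 2999 with DESeq2, 3633 at a threshold of 0.1, and 634 to 3516 with 1 steer left out. Without a filter the 2 members called were VIPR1 and VIP, and FGF7 missed the threshold (adjusted p = 0.0510). The VIP difference was -0.29 without the 6 libraries, and 3 pairs of a member and a marker list then passed. The cause of these changes was not tested.

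Deviations from treatment means correlated at 0.0328 over 30 same-numbered pairs (13 over 0.1) and -0.00638 over 151 others (55 over 0.1). Of 22 steers, 6 correlated best with a steer of their own number. The numbers are blocks of the design, and these values cannot show that the blocks may be left out. With the replicate block, 689 genes and 1 member were called (VIPR1 0.89, adjusted p = 0.0488; FGF7 -1.06, adjusted p = 0.0961), and FGF7 for casein + GLP-2 against GLP-2 was at 0.10. The smallest adjusted p for GLP-2 against BSA with the block was 0.0482 (edgeR quasi-likelihood test), so all 689 calls lay just under the threshold.

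In the smaller contrasts DESeq2 called 5 genes for casein against water, 289 for GLP-2 against control, 891 for casein + GLP-2 against casein, 10 for casein against control, 5 for casein + GLP-2 against GLP-2 and 2 for the interaction. With 1 steer left out, GLP-2 against control gave 0 to 429 genes and 0 to 1 members (VIPR1 1.23, adjusted p = 0.0455, without control replicate 2), and casein + GLP-2 against casein and against GLP-2 gave 0 to 1 genes.

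Signs turned only for members that were not called. For GLP-2 against BSA with the genes-at-1-count covariate, without the 5 and without the 6 libraries, GLP2R was at 0.27, 0.48 and 0.33 and NOS3 at 0.048, 0.45 and 0.21; AREG was at -0.56 with the covariate and -0.055 without the 6. For casein against water without the 5 and without the 6, GLP2R was at -0.53 and -0.43, IGF1 at -0.17 and -0.17, FGF7 at -0.37 and -0.44 and NOS3 at -0.63 and -0.47; limma on log2(FPKM + 1) and log2(FPKM + 0.1) gave -0.0014 and -0.066 for FGF7 and -0.023 and -0.22 for EREG. Without the 6, IGF1 for casein + GLP-2 against casein was at 0.092, FGF7 for casein against control at -0.68, and in the interaction FGF7 at 0.60 and HBEGF at -0.18. With 1 steer left out, ranges that crossed 0 were, for GLP-2 against BSA, GLP2R -0.69 to 0.14; for casein against water, GLP2R -0.15 to 0.69, IGF1 -0.072 to 0.29, FGF7 -0.16 to 0.24 and EREG -0.29 to 0.33; for GLP-2 against control, GLP2R -0.026 to 1.05 and NOS3 -0.23 to 0.79; for casein + GLP-2 against casein, IGF1 -0.42 to 0.15; for casein against control, FGF7 -0.16 to 0.35 and EREG -0.53 to 0.17; for casein + GLP-2 against GLP-2, GLP2R -1.06 to 0.068, FGF7 -0.27 to 0.13 and EREG -0.36 to 0.55; and for the interaction, FGF7 -0.45 to 0.076 and EREG -0.26 to 0.86.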
